A study of Mus musculus with 24 samples.

Results

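The Mediator kinase module genes Cdk8, Cdk19, Ccnc, Med12 and Med13l were followed on 24 arrays of R1, a line of mouse embryonic stem (ES) cells. They are 5 of the 16358 genes that the array could be shown to cover, and were taken with every probe whose accession matched one of the 5 symbols in a RefSeq gene table. That gave 8 of 41174 probes: a pair each for Cdk8 (A_51_P250963 and A_52_P504068), Ccnc (A_51_P279363 and A_52_P456674) and Med12 (A_52_P197666 and A_51_P435947), and a single probe each for Cdk19 (A_51_P158388) and Med13l (A_51_P457358). In each pair the first probe named is the brighter and the second the dimmer. All 8 probes passed the filter on dim probes and are among the 28241 probes tested. No probe was matched to Med13 or Med12l, which are not analysed here.

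The cells had been infected with lentivirus carrying a short hairpin RNA and were grown for 8 or 13 days after infection. The 8 groups had 3 arrays each: the control hairpin shNTC and the Cdk8 hairpins shCdk8-1 and shCdk8-2 on each day, and the Med12 hairpins shMed12-1 and shMed12-2 on day 13. Every group, the control included, is thus an infected population of the same cell line, and the labels do not say whether infected cells were selected or how many carried the hairpin. Replicates are called biological, but whether each was its own infection is not said, and every p-value rests on array-to-array spread alone.

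Mediator is a large complex that carries signals from transcription factors bound at enhancers to RNA polymerase II at promoters. Its kinase module can bind and leave the core complex. The module holds the kinase CDK8 or its paralog CDK19, cyclin C (the product of Ccnc), MED12, which activates the kinase, and MED13 or its paralog MED13L, which links the module to core Mediator. The comparisons with shNTC of the same day ask how far each hairpin lowered its target and whether the other module transcripts moved with it.

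Each array compared the RNA of the cells, labelled with Cy5, with a universal mouse reference RNA labelled with Cy3, and every level below is a log2 ratio of Cy5 over Cy3. A negative level means less signal from the cells than from the reference, a mixture of mouse cell lines. Changes are differences of such levels between groups of 3 arrays, with the standard error (SE) of a limma fit. They were called at an adjusted p under 0.05 after Benjamini-Hochberg adjustment over all 28241 probes, and every adjusted p below for a difference of levels is from that fit.

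The arrays carried the signature of ES cells. Pou5f1, Sox2, Zfp42 and Esrrb, which mark the pluripotent state, were above the reference on 24 of 24 arrays, and the mean log2 ratio of the 11 measured markers of ES cells lay between 4.71 and 5.49 by group. The 10 markers of fibroblasts or feeder cells had group means between -4.47 and -3.58. Endoderm markers, of which 9 were measured, went from -0.39 in shNTC cells on day 8 to -0.66 and -1.23 with shCdk8-1 and shCdk8-2, and from -1.14 on day 13 to between -1.45 and -1.19 with the 4 hairpins. On day 8, 5 of these 9 fell with shCdk8-1 and 1, Foxa2, rose by 0.35. With shCdk8-2, 7 fell, where 16.1% and 13.7% of all probes were called. On day 13, 4 fell with shCdk8-1 and 5 with shCdk8-2, against 11.7% and 11% of all probes. Of the same 9, 3 fell and 1 rose with shMed12-1, and 4 fell and 1 rose with shMed12-2, against 23.5% and 16.9%. Of the 11 ES cell markers 2 fell with shCdk8-1 on day 8, Pou5f1 and Utf1, and 0 with shCdk8-2. On day 13 those that fell were Utf1 and Klf4 with shCdk8-1 and Klf4 alone with shCdk8-2. Of the 10 fibroblast markers Acta2 fell (-0.33) and Thy1 rose with shCdk8-1 on day 8, and Acta2 (-0.65) and Pdgfrb fell with shCdk8-2. On day 13 Acta2 alone of these was called, and it rose by 1.39 with shCdk8-1 and by 0.58 with shCdk8-2. The shares of all probes called in these comparisons are those given above. With shMed12-1, 7 of the 11 ES cell markers fell and 3 of the 10 fibroblast markers rose, where 23.5% of all probes were called. With shMed12-2, 1 ES cell marker fell, 2 fibroblast markers rose and 1, Thy1, fell by 0.36, against 16.9% of all probes. The part of these markers in the results below was not tested. In bulk RNA, fewer cells of a type and less RNA per cell cannot be told apart. Log ratios were pulled toward 0 on replicate 1 of shCdk8-1 on day 8 and on replicate 3 of shMed12-1, with slopes of 0.78 and 0.79 against the mean of the other arrays of their group, where the other 22 arrays had slopes of 0.97 to 1.13. By array, the ES cell marker mean ran from 4.29 to 5.32 with shCdk8-1 on day 8 and from 4.23 to 4.99 with shMed12-1. The fibroblast marker mean ran from -3.61 to -3.55 with shMed12-1. Such a pull lowers high ratios and raises low ones, and its part in the marker calls was not tested. A slide held up to 4 arrays, and position on the slide went with the groups: all 6 Med12 hairpin arrays lay in position 4, which no other group used, and 8 of 9 day 8 arrays lay in position 1, which no day 13 array used. Position cannot be told apart from Med12 knockdown or from day.

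**Figure D1:**
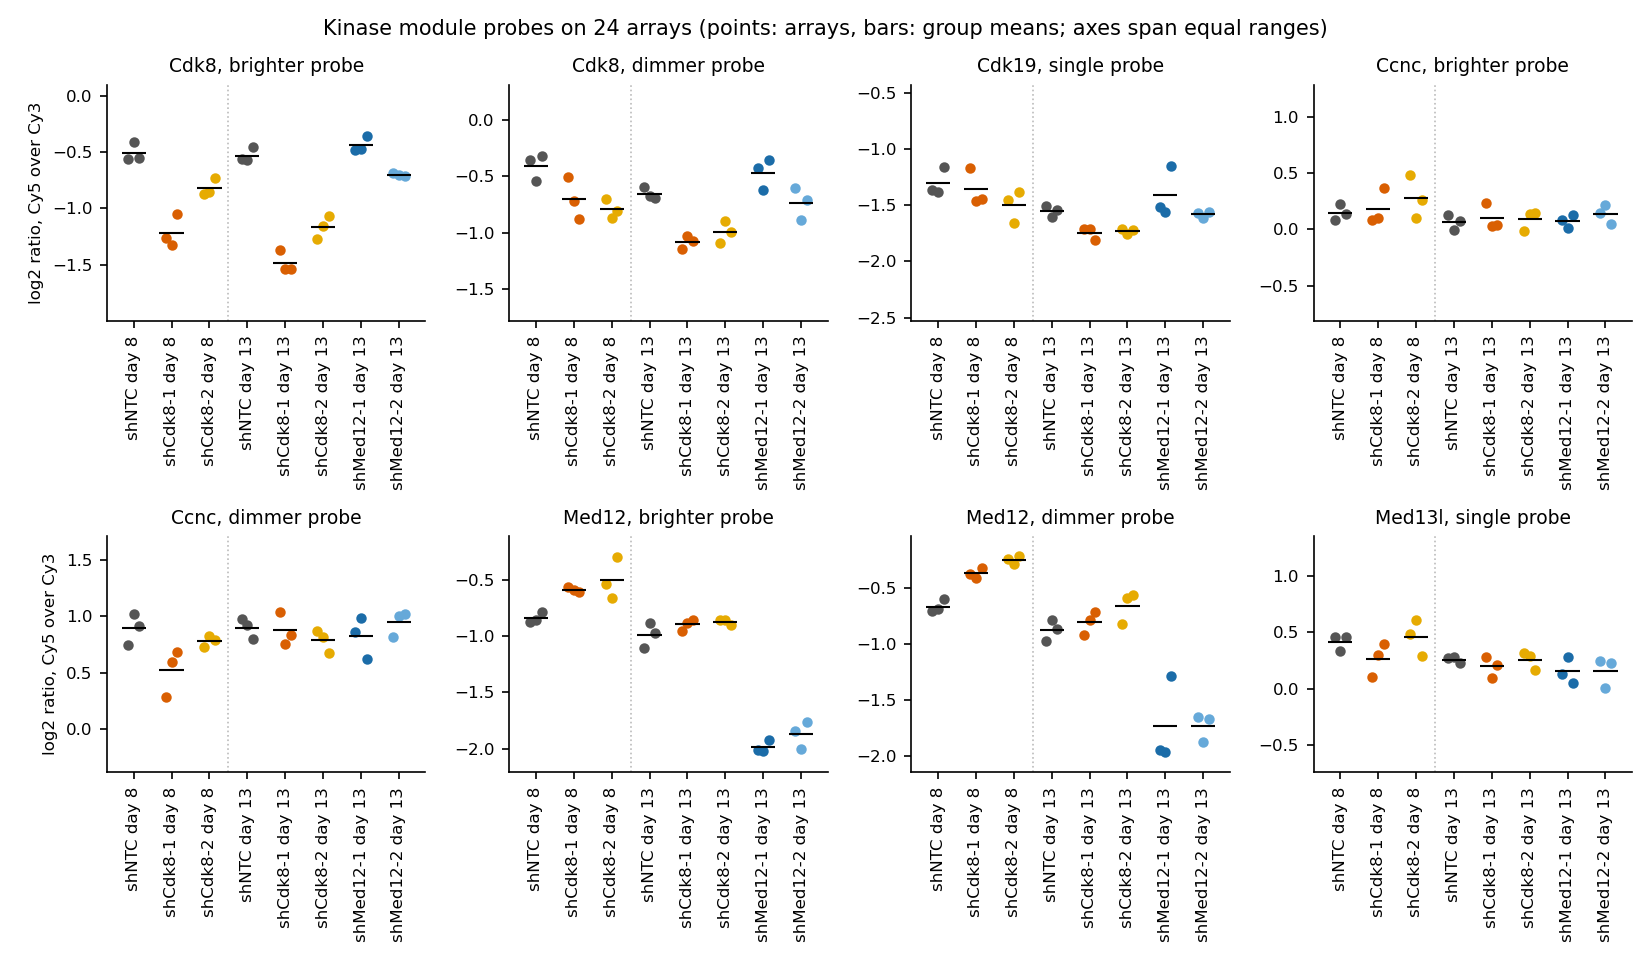
Log2 ratio of Cy5 over Cy3 for each of the 8 kinase module probes (vertical axes, equal spans) in the 8 groups (horizontal axes). Each point is 1 array, bars are means of 3 arrays, and the dotted line parts day 8 from day 13. The brighter Cdk8 probe was lowest in the 4 Cdk8 hairpin groups and both Med12 probes in the 2 Med12 hairpin groups, where the brighter Med12 probe lay between -2.02 and -1.76, while the brighter Ccnc probe and the Med13l probe overlapped between neighbouring groups throughout.

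Cdk8, the module's kinase, was lower with both of its hairpins on both days. On the brighter probe the level in shNTC cells on day 8 was -0.57, -0.41 and -0.55. With shCdk8-1 it was -1.26, -1.33 and -1.05, and with shCdk8-2 it was -0.87, -0.85 and -0.73. All 6 knockdown arrays lay below all 3 shNTC arrays. With shCdk8-1 the level fell by 0.71 (SE 0.07, adjusted p = 1.7e-06), to 61.3% of the control ratio (95% interval 55.1% to 68.3%). The fall was smaller with shCdk8-2, to 80.8% of control (72.6% to 90%), a change of -0.31 (SE 0.07, adjusted p = 0.0081). With slide as a fixed block the change with shCdk8-1 was -0.46 and still called.

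On day 13 the brighter Cdk8 probe was at -0.57, -0.57 and -0.46 in shNTC cells. It read -1.37, -1.54 and -1.54 with shCdk8-1, the lowest of the 8 groups, and -1.28, -1.16 and -1.07 with shCdk8-2. Again no knockdown array reached the control range. The change was -0.95 with shCdk8-1 (adjusted p = 6.2e-08), which left 51.8% of control (46.5% to 57.7%), and -0.64 with shCdk8-2 (adjusted p = 1.3e-05), which left 64.4% (57.8% to 71.7%). With the Med12 hairpins on that day the same probe read -0.48, -0.47 and -0.36 for shMed12-1 and -0.69, -0.70 and -0.71 for shMed12-2. The shMed12-2 arrays lay below all controls, but the difference of -0.17 was not called (adjusted p = 0.14), nor was that of 0.09 with shMed12-1 (adjusted p = 0.39).

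The dimmer Cdk8 probe, with a median Cy5 signal of 2.46 times its local background, moved the same way by smaller amounts in 3 of 4 comparisons. On day 8 it was at -0.35, -0.54 and -0.32 in shNTC cells, at -0.51, -0.72 and -0.88 with shCdk8-1 and at -0.70, -0.87 and -0.81 with shCdk8-2. The shCdk8-1 arrays overlapped the controls, since replicate 1, an array with pulled log ratios, read -0.51, while the shCdk8-2 arrays did not. The changes were -0.30 (adjusted p = 0.034) and -0.39 (adjusted p = 0.0078). On day 13 the 3 shNTC arrays read -0.60, -0.67 and -0.70, shCdk8-1 gave -1.15, -1.03 and -1.08 and shCdk8-2 gave -1.09, -0.90 and -1.0. Neither hairpin overlapped the controls, and the changes were -0.43 (adjusted p = 0.0038) and -0.34 (adjusted p = 0.020).

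The size of the fall on the dimmer probe depended on how background was treated, since the offset of 50 added to each signal shrinks the ratios of dim spots by construction. With no offset the dimmer probe changed by -0.36, -0.49, -0.63 and -0.51 with shCdk8-1 and shCdk8-2 on day 8 and day 13, in that order. In the log ratios made by Feature Extraction it changed by -0.46, -0.52, -0.53 and -0.67, where the brighter probe changed by -0.88, -0.34, -1.04 and -0.68. The direction was thus the same on both probes and all 3 scales.

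The response of the probe pairs was tested as a difference of its own, over 5104 probe pairs of one gene. The fall of Cdk8 was larger on the brighter probe by 0.41 with shCdk8-1 on day 8 (difference -0.41, adjusted p = 0.045) and by 0.52 on day 13 (difference -0.52, adjusted p = 0.020). With shCdk8-2 the difference was 0.08 (95% interval -0.19 to 0.34) on day 8 and -0.29 (-0.56 to -0.03, adjusted p = 0.26) on day 13, and neither was called. Of the 3 pairs of module probes, 2 were called with shCdk8-1 on day 8, where 9.82% of all pairs were, and 1 on day 13, against 4.29%. None of the 3 pairs was called by limma with shCdk8-2 (7.72% of all pairs on day 8, 3.15% on day 13), shMed12-1 (6.9%) or shMed12-2 (3.98%). At an unadjusted p under 0.05 the count there was 1, the Cdk8 pair with shCdk8-2 on day 13. Both called Cdk8 differences lost their call in the log ratios of Feature Extraction (-0.43 and -0.50 on day 8 and day 13) and with slide as a block (-0.09 and -0.23). That of day 8 also lost it on leaving out any of 15 of the 24 arrays (-0.47 to -0.29) and that of day 13 on leaving out any of 4 (-0.53 to -0.46).

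The hairpins differed in how far they lowered Cdk8 on the brighter probe, while no such difference was called on the dimmer. On the brighter probe shCdk8-1 was below shCdk8-2 by 0.40 on day 8 (difference -0.40, SE 0.07, adjusted p = 0.00092) and by 0.31 on day 13 (difference -0.31, SE 0.07, adjusted p = 0.0080). The arrays of both hairpins did not overlap on either day. On the dimmer probe the difference was 0.09 (95% interval -0.10 to 0.28) on day 8 and -0.09 (-0.28 to 0.11) on day 13. The brighter probe differed from the dimmer in this by -0.49 on day 8 (limma over all probe pairs, adjusted p = 0.026). That call was lost on leaving out any of 4 arrays (-0.47 to -0.37). On day 13 the probes differed by -0.23 (adjusted p = 0.42). The brighter probe was the single module probe called in each of these comparisons, 1 of 8, where 16.6% of all probes were called on day 8 and 10.7% on day 13. With slide as a block the differences were -0.19 on both days and not called.

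On the brighter probe, Cdk8 was lower on day 13 than on day 8 in both Cdk8 hairpin groups. The differences were -0.27 with shCdk8-1 (adjusted p = 0.012) and -0.35 with shCdk8-2 (adjusted p = 0.0013), while shNTC cells differed by -0.02 (95% interval -0.18 to 0.13). The first lost its call on leaving out shCdk8-1 replicate 3 of day 8 (-0.19), replicate 2 of day 13 (-0.24) or replicate 3 of day 13 (-0.24), and became 0.12 with arrays scaled to a common spread. On the dimmer probe shNTC cells were themselves lower on day 13, by a difference of -0.25 that was not called (adjusted p = 0.071). There the differences were -0.38 with shCdk8-1 (adjusted p = 0.0045) and -0.21 with shCdk8-2 (adjusted p = 0.11). The difference of the hairpin effect between days, averaged over both hairpins, was -0.29 (SE 0.09, adjusted p = 0.13) on the brighter probe and -0.04 on the dimmer, so a larger knockdown on day 13 was not called.

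The fall of the brighter Cdk8 probe with shCdk8-2 on day 8 was the smallest of the 4 and the least stable. It lost its call on leaving out shNTC replicate 2 (-0.26, adjusted p = 0.052). The only within-slide pair for it, on slide 1, differed by -0.16 on the brighter probe and by -0.46 on the dimmer. For shCdk8-2 on day 13 the pair on slide 8 differed by -0.50 and -0.40. On the dimmer probe the call with shCdk8-1 on day 8 was lost on leaving out shNTC replicate 1 or 3 or shCdk8-1 replicate 2 or 3 (-0.29 to -0.21). That with shCdk8-2 on day 13 was lost on leaving out shNTC replicate 1 or 2 or shCdk8-2 replicate 1 or 3 (-0.35 to -0.29).

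**Figure D2:**
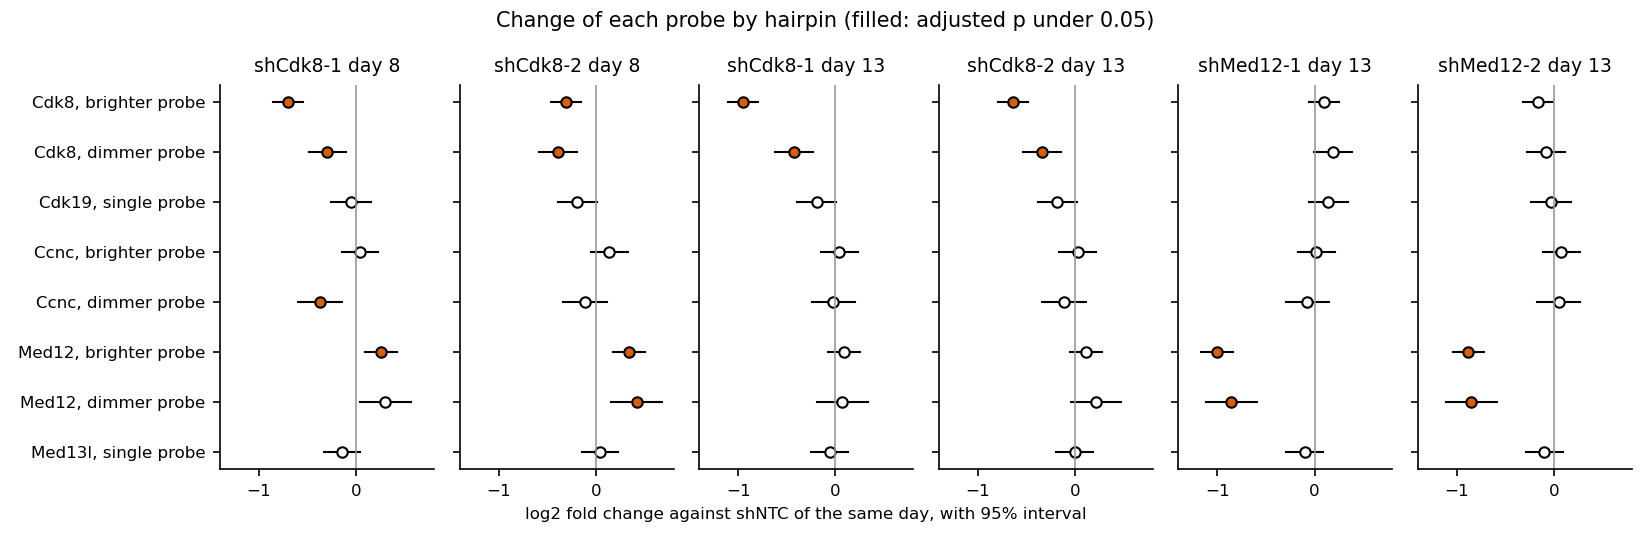
Log2 fold change of each kinase module probe against shNTC of the same day (horizontal axes) for the 6 hairpin comparisons, with 95% intervals from the limma fit. Filled points had an adjusted p under 0.05: both probes of the targeted gene fell in each comparison, and both Med12 probes lay above 0 with the Cdk8 hairpins on day 8.

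Cdk19, the paralog that can take the place of CDK8 in the module, was not called with any hairpin. Its single probe read -1.36, -1.39 and -1.16 in shNTC cells on day 8, -1.17, -1.46 and -1.45 with shCdk8-1 and -1.45, -1.66 and -1.38 with shCdk8-2, and the groups overlapped. On day 13 it read -1.50, -1.60 and -1.55 in shNTC cells, -1.71, -1.71 and -1.81 with shCdk8-1 and -1.71, -1.76 and -1.72 with shCdk8-2. There all 6 knockdown arrays lay below the controls, by means of -0.19 (95% interval -0.39 to 0.01) and -0.18 (-0.38 to 0.02). The adjusted p-values were 0.24 and 0.28. With the Med12 hairpins it changed by 0.14 (adjusted p = 0.31) and -0.03 (adjusted p = 0.88).

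The difference between Cdk8 and Cdk19 was followed on each array as the level of the brighter Cdk8 probe minus that of the Cdk19 probe, and only its change between groups is read. On day 8 it was 0.79 ± 0.18 (SD, n = 3) in shNTC cells and 0.41 ± 0.34 (SD, n = 6) over both Cdk8 hairpins, a difference of -0.38 (exact two-sided permutation test, p = 0.13). On day 13 it was 1.02 ± 0.08 (SD, n = 3) and 0.41 ± 0.19 (SD, n = 6), a difference of -0.61 with p = 0.012, the smallest that the exact permutation test allows for 84 assignments. Adjusted over the 2 days the exact permutation p-values were 0.13 and 0.024. On day 13 the change of Cdk8 on its brighter probe, averaged over both hairpins, was thus larger than that of Cdk19. The 6 knockdown arrays were treated as alike, though the hairpins differed by -0.31 on that probe. On the dimmer Cdk8 probe the mean change over both hairpins was smaller, at -0.39 (SE 0.08). That of Cdk19 was -0.19 (SE 0.08), and the dimmer probe was not tested against it.

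The single channels gave another picture for Cdk19 on day 8. In the Cy3 channel, which holds the same reference RNA on every array, the log2 intensity of the Cdk19 probe was 9.48, 9.65 and 9.31 on the shNTC day 8 arrays. It was 10.01, 9.87 and 9.98 on the shCdk8-1 arrays and 9.59, 9.96 and 10.04 on the shCdk8-2 arrays, and 9.78 or higher on all day 13 arrays. The reference signal was thus low on the shNTC day 8 arrays, and its difference from them was 0.47 with shCdk8-1 (adjusted p = 0.020) and 0.38 with shCdk8-2 (adjusted p = 0.23). With shCdk8-1 Cdk19 rose by 0.31 in Cy5 alone (adjusted p = 0.029), and shCdk8-2 gave a change of 0.21 (adjusted p = 0.17), where the ratio changed by -0.06 and -0.19. The dimmer Cdk8 probe showed Cy3 differences of 0.25 and 0.26 in the same comparisons, not called, beside Cy5 changes of -0.12 and -0.10 that were not called either. Its fall in the ratio on day 8 was thus not called in Cy5 alone, and what part the reference signal had in it was not tested.

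Over all 48 combinations of a module probe and a hairpin comparison, 1 was called in Cy3 alone, that of Cdk19 with shCdk8-1 on day 8, where 0.584% of all probes were called. The other 5 comparisons had no call among the module probes in Cy3, and 0.0142% (shCdk8-2 on day 8), 0.00354% and 0% (shCdk8-1 and shCdk8-2 on day 13), 0.666% and 0.0177% (shMed12-1 and shMed12-2) of all probes were called. At an unadjusted p under 0.05, 10 of the 48 passed in Cy3. The share of all probes at that threshold was not counted, here or for the other unadjusted counts in the text. In Cy5 alone 13 of the 48 were called. With shCdk8-1 on day 8 it was 3 of 8, where 22% of all probes were called, and with shCdk8-2 2 of 8, against 16.6%. On day 13 it was 2 of 8 in each comparison, where 15.5% (shCdk8-1), 12.6% (shCdk8-2), 25.3% (shMed12-1) and 19.1% (shMed12-2) of all probes were called. The 13 included all 4 falls of the brighter Cdk8 probe (-0.96, -0.38, -1.08 and -0.65), both falls of the dimmer one on day 13 (-0.55 and -0.39) and all 4 falls of Med12 with its own hairpins. The channel values were scaled to a common distribution between arrays, which the ratios were not.

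**Figure D3:**
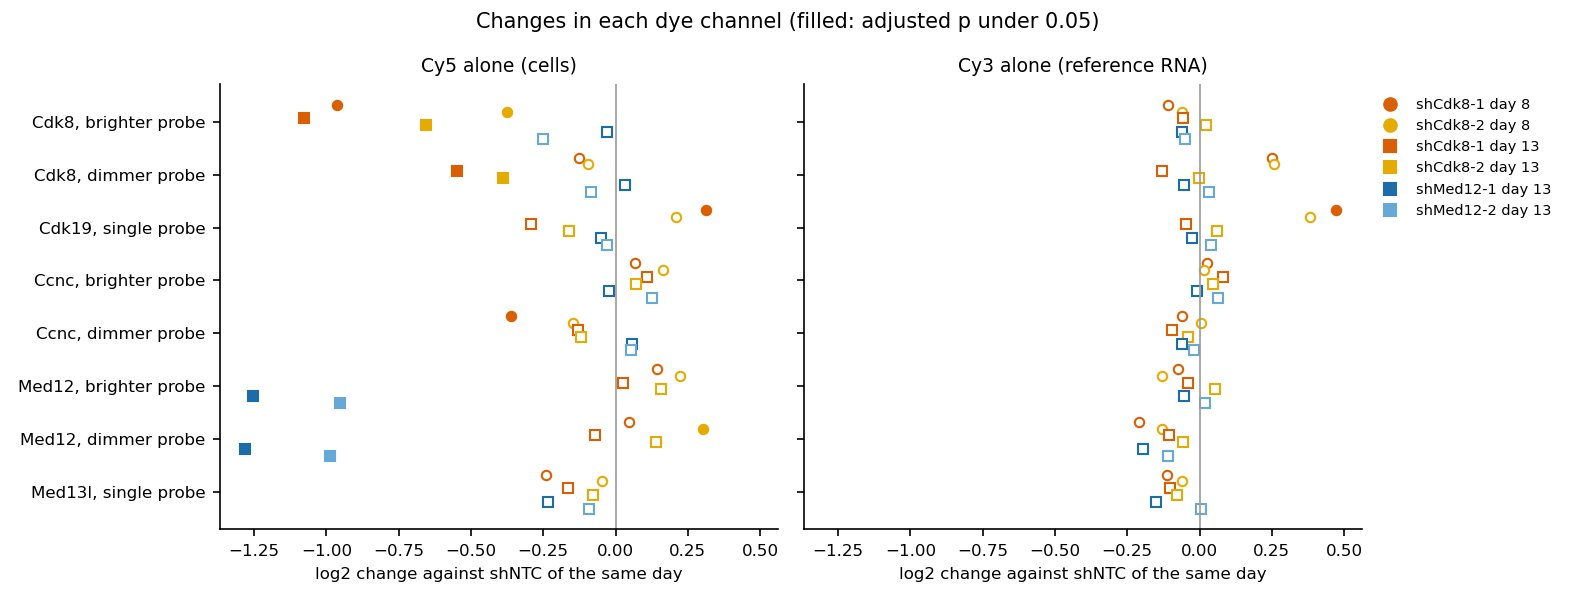
Log2 change against shNTC of the same day (horizontal axes) for the 8 kinase module probes in Cy5 alone, which holds the RNA of the cells, and in Cy3 alone, which holds the reference RNA; circles are day 8 and squares day 13, filled where the adjusted p was under 0.05. The targeted genes fell in Cy5, down to -1.28 for Med12, while the single filled point in Cy3 is Cdk19 with shCdk8-1 on day 8 at 0.47.

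Ccnc encodes cyclin C, the partner that both kinases need. Its brighter probe was not called in any hairpin comparison, with changes between 0.02 and 0.14. On day 8 it read 0.08, 0.22 and 0.13 in shNTC cells, and on day 13 it read 0.12, -0.01 and 0.07. The other groups lay between -0.01 and 0.49. The dimmer Ccnc probe read 0.75, 1.02 and 0.92 in shNTC cells on day 8 and 0.29, 0.59 and 0.68 with shCdk8-1. These groups did not overlap, with replicate 1, an array with pulled log ratios, the lowest. The change was -0.38 (SE 0.11, adjusted p = 0.020), where shCdk8-2 gave -0.11 (adjusted p = 0.57).

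The Ccnc probes differed on that comparison, though not under every set of arrays. Their changes with shCdk8-1 on day 8 were 0.04 and -0.38, and the difference of 0.41 was called over all probe pairs (adjusted p = 0.038). It lost its call on leaving out any of the 3 shNTC arrays or shCdk8-1 replicate 1 or 3 (0.35 to 0.46). The fall on the dimmer probe lost its call on leaving out shNTC replicate 2 or 3 or shCdk8-1 replicate 1 (-0.37 to -0.26), and was -0.26 (adjusted p = 0.062) without both arrays with pulled log ratios. In Cy5 alone it was -0.36 (adjusted p = 0.0037). On day 13 the dimmer probe changed by -0.02 (shCdk8-1) and -0.11 (shCdk8-2) and by -0.08 and 0.05 with the Med12 hairpins, none of them called.

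Med12, the subunit that activates the kinase, was lowered by both of its hairpins, which were used on day 13 alone. On the brighter probe, which had the strongest signal over background of the 8 (median 31.5 times in Cy5), shNTC cells read -1.11, -0.88 and -0.97. The shMed12-1 arrays read -2.01, -2.02 and -1.93, and the shMed12-2 arrays -1.84, -2.0 and -1.76. No array of either hairpin overlapped the controls. The change was -1.0 with shMed12-1 (SE 0.08, adjusted p = 1.0e-08), which left 50% of control (44.7% to 56.0%), and -0.88 with shMed12-2 (SE 0.08, adjusted p = 7.0e-08), which left 54.3% (48.6% to 60.8%). With arrays scaled to a common spread the change with shMed12-1 was -1.60 and still called.

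The dimmer Med12 probe read -0.98, -0.79 and -0.87 in shNTC cells, -1.95, -1.96 and -1.29 with shMed12-1 and -1.65, -1.88 and -1.66 with shMed12-2. The value of -1.29 came from replicate 3, an array with pulled log ratios, and still lay below all controls. The changes were -0.85 with either hairpin (adjusted p = 3.9e-05 and 4.6e-05). No difference between the Med12 probes in their change was called with either hairpin, at -0.15 (95% interval -0.38 to 0.09) and -0.03 (-0.26 to 0.21). In Feature Extraction's log ratios, however, the dimmer probe fell further with shMed12-1 (-1.47 against -1.08), and that difference of 0.39 was called (adjusted p = 0.0025). On slides 1 and 2, which held both groups, shMed12-2 differed from shNTC by -0.96 and -1.03 on the brighter probe and by -0.86 and -1.01 on the dimmer.

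In the ratio no difference between the Med12 hairpins was called in the level of Med12. It was -0.12 (95% interval -0.28 to 0.04) on the brighter probe and -0.00 (-0.26 to 0.25) on the dimmer. In Cy5 alone shMed12-1 was lower by 0.30 on the brighter probe (difference -0.30, adjusted p = 0.020) and by 0.29 on the dimmer (difference -0.29, adjusted p = 0.014). The hairpins did differ in Cdk8. It was higher with shMed12-1 than with shMed12-2 by 0.26 on the brighter probe (adjusted p = 0.016) and by 0.27 on the dimmer (adjusted p = 0.047). The arrays of the 2 hairpins did not overlap on the brighter probe and did on the dimmer, where replicate 2 of shMed12-1 (-0.62) lay just below replicate 1 of shMed12-2 (-0.61). These were the 2 of 8 module probes called between the Med12 hairpins, where 20.2% of all probes were called. The difference on the brighter probe lost its call on leaving out shMed12-1 replicate 3, an array with pulled log ratios (0.22), and that on the dimmer probe on leaving out any of 16 arrays (0.19 to 0.28).

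With the Cdk8 hairpins Med12 was higher on day 8. The brighter probe read -0.88, -0.85 and -0.79 in shNTC cells, -0.56, -0.59 and -0.61 with shCdk8-1 and -0.54, -0.67 and -0.30 with shCdk8-2. The dimmer probe read -0.71, -0.69 and -0.60, then -0.37, -0.41 and -0.33, then -0.25, -0.29 and -0.22. On both probes all 6 knockdown arrays lay above the controls. Over the mean of both hairpins Med12 rose by 0.30 on the brighter probe (SE 0.07, adjusted p = 0.0052) and by 0.36 on the dimmer (SE 0.11, adjusted p = 0.030). The dimmer probe lost that call on leaving out any of the 3 shNTC arrays or shCdk8-2 replicate 3 (0.34 to 0.39).

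For the single hairpins the change of Med12 was 0.25 with shCdk8-1 (adjusted p = 0.031) and 0.34 with shCdk8-2 (adjusted p = 0.0055) on the brighter probe. On the dimmer probe it was 0.30 (adjusted p = 0.11) and 0.42 (adjusted p = 0.029). In Cy5 alone the brighter probe changed by 0.14 (adjusted p = 0.28) and 0.22 (adjusted p = 0.11) and the dimmer by 0.05 (adjusted p = 0.74) and 0.30 (adjusted p = 0.016), beside Cy3 changes of -0.07 and -0.13 on the brighter probe and -0.21 and -0.13 on the dimmer. The mean rise on the brighter probe was 0.18 (adjusted p = 0.12) in Cy5 alone, 0.34 (adjusted p = 0.21) with median centring in place of loess and 0.20 (adjusted p = 0.76) with arrays scaled to a common spread. With shCdk8-1 the brighter probe lost its call on leaving out shNTC replicate 1 or 2 or any shCdk8-1 array (0.23 to 0.26), and with shCdk8-2 the dimmer probe lost it on leaving out any of the 6 arrays compared (0.40 to 0.45). On slide 1 shCdk8-2 lay above shNTC by 0.58 and 0.49.

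On day 13 Med12 read -0.95, -0.88 and -0.86 with shCdk8-1 and -0.86, -0.85 and -0.90 with shCdk8-2 on the brighter probe, within the range of the shNTC arrays or just above it. The changes were 0.09 (adjusted p = 0.55) and 0.12 (adjusted p = 0.42). The difference of the effect between days was -0.19 (SE 0.10, adjusted p = 0.41) on the brighter probe and -0.21 (adjusted p = 0.64) on the dimmer, so the rise on day 8 was not shown to differ from the values of day 13.

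Med13l encodes a paralog of MED13 and was not called in any hairpin comparison. Its single probe was dim, with a median Cy5 signal of 2.95 times background, and was well above background on 23 of 24 arrays. It read 0.46, 0.33 and 0.46 in shNTC cells on day 8 and 0.27, 0.28 and 0.22 on day 13. With the Cdk8 hairpins it lay between 0.11 and 0.61 on day 8 and between 0.09 and 0.32 on day 13. With the Med12 hairpins it read 0.13, 0.28 and 0.05 and 0.25, 0.00 and 0.22. The changes ran from -0.15 with shCdk8-1 on day 8 (95% interval -0.34 to 0.04) to 0.04 with shCdk8-2 on that day (-0.14 to 0.23), and with the Med12 hairpins they were -0.10 and -0.10.

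Counted over the module, 4 of the 8 probes were called with shCdk8-1 on day 8, where 16.1% of all probes were, and 4 with shCdk8-2, against 13.7%. On day 13, 2 were called with shCdk8-1 (11.7% of all probes), 2 with shCdk8-2 (11%), 2 with shMed12-1 (23.5%) and 2 with shMed12-2 (16.9%). On that day the called probes were in each case the 2 of the targeted gene, and none of the 6 others was called by limma. At an unadjusted p under 0.05, 1 of them passed over the 4 comparisons, the brighter Cdk8 probe with shMed12-2. The arrays of hairpin and control did not overlap for 4 probes with shCdk8-1 on day 8 (30.3% of all probes) and 4 with shCdk8-2 (34%). On day 13 they did not overlap for 3 with shCdk8-1 (34.8%), 3 with shCdk8-2 (33.8%), 2 with shMed12-1 (41.9%) and 3 with shMed12-2 (42.8%). Over the mean of both hairpins of a target, 4 of 8 were called for Cdk8 on day 8 (14.3% of all probes), 2 for Cdk8 on day 13 (11.7%) and 2 for Med12 (19.7%), each time the probes of Cdk8 or Med12 or, on day 8, of both. On day 8 the targeted gene gave 2 of the 4 calls with either hairpin, and the 6 other probes gave the other 2. All comparisons of one day share the same 3 shNTC arrays.

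Set directly against each other on day 13, the Cdk8 and Med12 knockdowns differed in 5 of the 8 module probes, where 17.4% of all probes were called. For the Cdk8 minus the Med12 hairpins the difference was -0.75 and -0.44 on the Cdk8 probes (adjusted p = 2.7e-09 and 6.2e-05), and 1.04 and 1.0 on the Med12 probes (adjusted p = 4.6e-11 and 8.5e-08). Cdk19 was lower with the Cdk8 than with the Med12 hairpins, with a difference of -0.24 (SE 0.07, adjusted p = 0.017). That call for Cdk19 was lost in Cy5 alone (-0.19, adjusted p = 0.075), with median centring (-0.24, adjusted p = 0.38), with slide as a block (-0.24, adjusted p = 0.074) and with arrays scaled to a common spread (-0.02). Ccnc differed by -0.01 and -0.05 and Med13l by 0.07, none of them called.

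Between days, none of the 8 module probes was called in shNTC cells by limma, where 17.2% of all probes were, and 2 had an unadjusted p under 0.05: the dimmer Cdk8 probe (-0.25, adjusted p = 0.071) and Cdk19 (-0.25, adjusted p = 0.090). The first was called on leaving out shNTC replicate 2 of day 8 (-0.32) or shCdk8-1 replicate 1 or 3 of day 8, and the second on leaving out shMed12-1 replicate 3. With shCdk8-1, 6 of 8 were called (22.8% of all probes) and with shCdk8-2, 3 of 8 (26.6%). Both Med12 probes were lower on day 13 than on day 8 in both Cdk8 hairpin groups, with differences of -0.31 and -0.44 for shCdk8-1 (adjusted p = 0.0058 and 0.014) and -0.37 and -0.41 for shCdk8-2 (adjusted p = 0.0012 and 0.018). On the dimmer probe the call was lost without shCdk8-1 replicate 1 of day 13 (-0.38), and for shCdk8-2 without replicate 3 of day 8 (-0.39) or replicate 1 of day 13 (-0.33). In shNTC cells the same probes differed by -0.15 and -0.21, not called. Cdk19 was lower on day 13 with shCdk8-1, with a difference of -0.38 (adjusted p = 0.0061). The dimmer Ccnc probe was higher by 0.36 there (adjusted p = 0.018), and lost its call without replicate 1 of day 8 (0.24) or replicate 1 of day 13 (0.28). The interaction, which asks whether the Cdk8 hairpin effect differed between days, was called for 0 of 8 probes by limma, with 1 at an unadjusted p under 0.05 and 2.01% of all probes called.

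**Figure D4:**
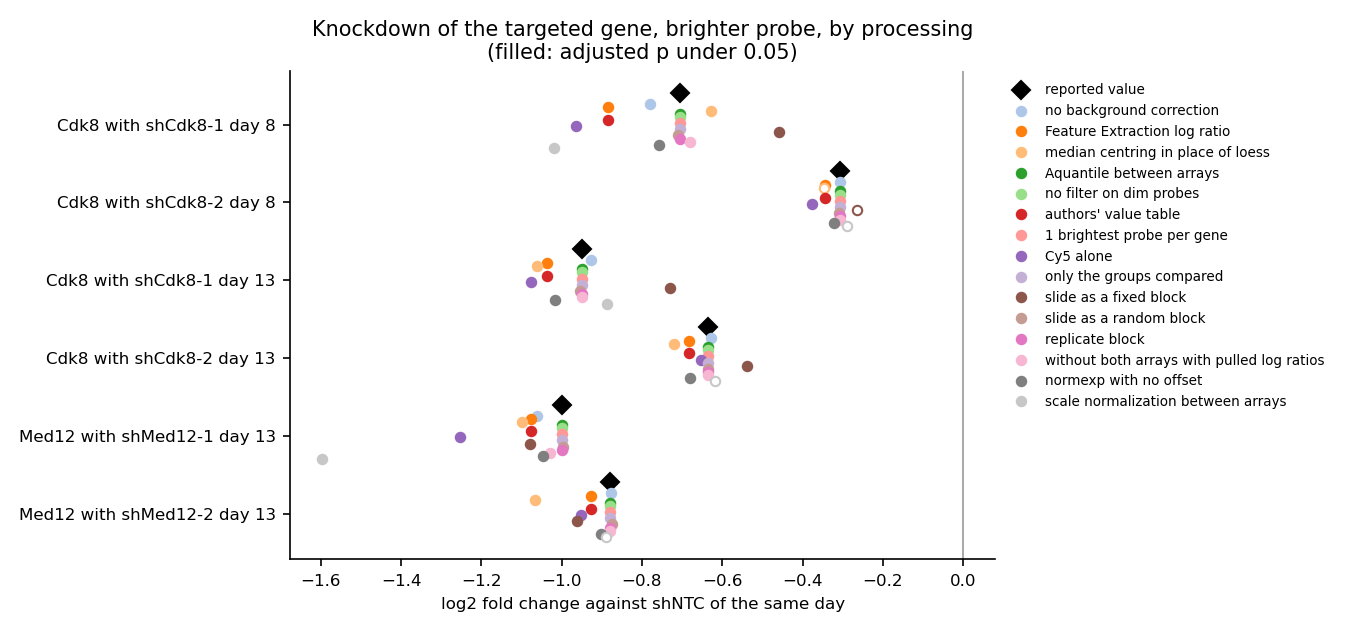
Log2 fold change of the targeted gene on its brighter probe (horizontal axis) in the 6 hairpin comparisons (vertical axis), as reported (diamonds) and under 15 other ways of processing the arrays (circles), filled where the adjusted p was under 0.05. Every value lay below 0, from -1.60 for Med12 with shMed12-1 to -0.26 for Cdk8 with shCdk8-2 on day 8, and the open circles mark the 3 comparisons in which a call was lost. Some of the 15 settings leave the change itself as it was.

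The order of the groups by level repeated these differences for the targeted genes. For the brighter Cdk8 probe shMed12-1 cells were highest (-0.44 ± 0.07, SD, n = 3), followed by shNTC on day 8 (-0.51 ± 0.08, SD, n = 3) and on day 13 (-0.53 ± 0.07, SD, n = 3), and these neighbours overlapped. Then came shMed12-2 (-0.70 ± 0.01, SD, n = 3), shCdk8-2 on day 8 (-0.82 ± 0.08, SD, n = 3), shCdk8-2 on day 13 (-1.17 ± 0.10, SD, n = 3), shCdk8-1 on day 8 (-1.21 ± 0.14, SD, n = 3) and shCdk8-1 on day 13 (-1.48 ± 0.10, SD, n = 3). Of these only shCdk8-2 on day 13 and shCdk8-1 on day 8 overlapped as neighbours. For the brighter Med12 probe the order ran from shCdk8-2 on day 8 (-0.50 ± 0.19, SD, n = 3) to shMed12-1 (-1.99 ± 0.05, SD, n = 3), with gaps below the 2 Cdk8 hairpin groups of day 8 and above the 2 Med12 hairpin groups. For Cdk19 the one gap lay between shMed12-2 (-1.58 ± 0.03, SD, n = 3) and shCdk8-2 on day 13 (-1.73 ± 0.02, SD, n = 3), and for the brighter Ccnc probe and Med13l all neighbours in the order overlapped.

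Core Mediator, the part of the complex that the module binds, was followed with the brightest probe of 23 of its 26 listed genes. With shCdk8-1 on day 8, 1 fell and 3 rose, and with shCdk8-2, 4 fell and 2 rose. On day 13, 1 fell and 2 rose with shCdk8-1 and with shCdk8-2 the 2 called genes rose. With the Med12 hairpins 3 fell and 2 rose, and 1 fell and 2 rose. These are 4, 6, 3, 2, 5 and 3 of 23 genes, where 16.1%, 13.7%, 11.7%, 11%, 23.5% and 16.9% of all probes were called. Leaving out 1 array gave 2 to 5 and 3 to 7 genes on day 8, lowest without shCdk8-1 replicate 1 and without shCdk8-2 replicate 2. On day 13 it gave 1 to 3 with shCdk8-1, lowest without shNTC replicate 1, and 0 to 3 with shCdk8-2. It gave 3 to 5 with shMed12-1, lowest without shNTC replicate 2 or 3 or shMed12-1 replicate 3, and 2 to 5 with shMed12-2, highest without shCdk8-2 replicate 3. The median change of the list lay between -0.07 and 0.05 in all 6 comparisons, where the median of all probes lay between -0.00 and 0.00.

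A few core genes were called with both hairpins of a target against the same shNTC arrays. The share of all probes called with both hairpins was not counted, so no excess or lack is read from these genes. Med25, a subunit that receives signals from activators, rose on day 8 by 0.22 with shCdk8-1 and 0.25 with shCdk8-2 (adjusted p = 0.018 and 0.0072). Med7, of the middle module, rose on day 13 by 0.21 with shCdk8-1 and 0.17 with shCdk8-2 (adjusted p = 0.0091 and 0.035). The call with shCdk8-2 was lost without shNTC replicate 2 or 3 or shCdk8-2 replicate 2. Med28, of the head module, rose by 0.18 and 0.18 with the Med12 hairpins (adjusted p = 0.027 and 0.036). With shCdk8-1 and shCdk8-2 Med28 changed by 0.14 and 0.14 on day 8, not called. On day 13 it changed by 0.13 and 0.18, the second called (adjusted p = 0.044). Each of these changes was under 0.3 on the log2 scale.

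The other kinases and cyclins that act on RNA polymerase II, with their regulators, were measured by 14 of 16 listed genes. With shCdk8-1 on day 8, 1 of the 14 was called, Ccnl2, a cyclin L gene, which rose by 0.26, where 16.1% of all probes were called. It was 0 of 14 with shCdk8-2 on day 8 (13.7% of all probes) and with shCdk8-1 and shCdk8-2 on day 13 (11.7% and 11%). With shMed12-1 (23.5% of all probes), 1 of the 14 was called, Mnat1, the assembly factor of the CDK7 complex, which fell by 0.23. With shMed12-2 (16.9% of all probes), Hexim1, an inhibitor of the CDK9 complex, fell by 0.23 and Larp7, a protein of the same inhibitory particle, rose by 0.30. None of them was called with both hairpins of a target, for which no share of all probes was counted.

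The genes most like each member were those whose brightest probe had the highest Pearson correlation with the member's brighter or single probe over the 24 arrays, among 13731 genes. The arrays share groups and slides, so these values are descriptions. For Med12 they were Actn3, an alpha-actinin (r = 0.97), Ccnd2, a D-type cyclin (r = 0.95), and Ndufv3, of respiratory complex I (r = 0.94). Actn3 fell by 0.96 and 0.79 with the Med12 hairpins, Ccnd2 by 1.17 and 0.77 and Ndufv3 by 0.36 and 0.47. For Cdk8 they were Mpp1, a membrane scaffold (r = 0.89), Traf3ip2, an adaptor of interleukin signalling (r = 0.88), and Guca1a, an activator of guanylate cyclase (r = 0.87). With shCdk8-1 and shCdk8-2, Mpp1 changed by -0.65 and -0.28 on day 8 and by -0.66 and -0.14 on day 13, the last not called. Traf3ip2 changed by -0.40 and -0.22 on day 8, the second not called, and by -0.49 and -0.41 on day 13. Guca1a changed by -0.79 and -0.33 and then by -0.79 and -0.57, and it also fell by 0.47 with shMed12-2.

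Of the members that no hairpin targeted, Cdk19 was most like Hsd17b7, an enzyme of cholesterol synthesis (r = 0.89), Pdgfra, a receptor for platelet-derived growth factor (r = 0.88), and Zfp60, a zinc finger gene (r = 0.87). Ccnc was most like Chuk, a kinase of the NF-kappaB pathway (r = 0.81), Eif2a, a translation factor (r = 0.80), and Calr, a chaperone (r = 0.79). Med13l was most like Hydin, a protein of cilia (r = 0.86), Cep85, of the centrosome (r = 0.86), and Dusp27, of the dual-specificity phosphatase family (r = 0.85). Between the probes of one gene r was 0.97 for Med12, 0.74 for Cdk8 and -0.07 for Ccnc. After subtracting group means it was 0.47, -0.29 and 0.17, so the probes of Cdk8 moved together between groups and not within them.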

How the data were processed

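R1 mouse ES cells with 5 lentiviral hairpins were profiled on 24 Agilent 2-colour arrays, 3 per group, with Cy5 for the cells and Cy3 for the reference RNA throughout, with no dye swap, per the labels' protocols. Each array received 750 ng of cRNA. The deposited scanner files hold, per the file headers, median spot and local background intensity in both channels, not normalized, and a log10 ratio made by Feature Extraction (version 10.7, per the submitters' processing notes). The value table the authors deposited was set against the scanner ratios array by array (slope 1.00), which shows log2 of Cy5 over Cy3 for the same probes. Its column medians of -0.0049 to 0.12 show that it is not centred on 0, and no source used here says why 3376 to 10335 values per column are blank.

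Intensities were corrected with normexp (offset 50), log2 ratios were normalized by loess within each array, with control spots and spots marked as outliers left out, and spots of one probe were averaged. A probe was kept where 1 or more groups had it well above background in Cy5 on 3 of 3 arrays, which gave 28304, less 63 with a missing value. The limma fit (limma 3.58.1, R 4.3.3; the data.table package, version 1.17.8, read the files) had 8 group means and 16 residual degrees of freedom. Differences between 2 probes of a gene were fitted per array over 5104 pairs, and each channel was fitted alone after quantile normalization. The difference between Cdk8 and Cdk19 had an exact permutation test. The limma fits of probes and of probe pairs were tested on simulated data, for shCdk8-1 on day 8 and for shMed12-1 on day 13 respectively. The single-channel fits, the fits with blocks and the permutation test were not. Probes were named through the RefSeq table of GRCm38.p6, used for names alone since the array design names an older build, and no coordinates are given. The table named 22951 probes and left 18223 unnamed.

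Between 48.9% and 76.1% of spots per array were well above background in Cy5. No spot was saturated. The number of arrays limits the precision, and replicate arrays correlated at 0.97 to 0.99. Named are all member probes, the 3 genes most like each member, and up to 4 listed genes per list and knockdown called with both hairpins in the same direction. Other called list genes that are named were chosen after their values were seen. The members and lists were chosen with earlier results of these data known. The plan assumed mean intensities and a gene name column, and medians and accessions took their place. Alternatives were background and normalization methods, the dim-probe filter, the authors' table, probe choice, Cy5 alone, the samples fitted, slide and replicate blocks, and leaving out each array. Scaling between arrays and normexp without offset (offset 0) were added after seeing the data.

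Replicate numbers are shared between groups, but arrays with the same number did not deviate together: 2 of 18 correlations of their deviations were over 0.1 (range -0.12 to 0.20), so the numbers were not used as pairs.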

Additional observations from a re-analysis of the deposited data

Results flagged for a closer look

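In Cy5 alone the effect of the Cdk8 hairpins on Cdk19 differed between days by -0.49 (limma's interaction test, adjusted p = 0.027). Against shNTC of the same day, Cdk19 changed by 0.26 on day 8 (adjusted p = 0.039) and by -0.23 on day 13 (adjusted p = 0.091). In Cy3 alone, which holds the reference RNA, the same difference was -0.42 (adjusted p = 0.90), and in the ratio it was -0.06 (adjusted p = 0.91). The arrays of the 2 days lay in different positions on the slides, and what part that had was not tested.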

How the results depend on the processing

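The 15 other ways of processing the arrays and the 24 fits that each left out 1 array changed no direction of the targeted genes against shNTC. For part of them this was fixed in advance. The dim-probe filter, probe choice, samples fitted, replicate block and Aquantile normalization leave each change as it was and alter at most its SE or adjusted p. Leaving out an array outside the groups compared does the same. The authors' table repeats the log ratios of Feature Extraction apart from its blanks. Cdk8 with shCdk8-2 on day 8 lost its call with median centring in place of loess (-0.35, adjusted p = 0.37), slide as a fixed block (-0.26, adjusted p = 0.053) and scale normalization between arrays (-0.29, adjusted p = 0.57), and ranged from -0.35 to -0.26 when 1 array was left out. Scale normalization also ended the calls of Cdk8 with shCdk8-2 on day 13 (-0.62, adjusted p = 0.12) and Med12 with shMed12-2 (-0.89, adjusted p = 0.093). The mean rise of Med12 on day 8 lost its call with median centring (0.34), in Cy5 alone (0.18), with only the groups compared (0.30, adjusted p = 0.053) and with scale normalization (0.20). The difference between Cdk8 hairpins on the brighter probe lost its call on day 8 with median centring (-0.28), only the groups compared (-0.40, adjusted p = 0.082) and slide as a fixed block (-0.19). On day 13 it did so with median centring (-0.34), the fixed block (-0.19) and scale normalization (-0.27). The Med12 hairpins differed in Med12 in Cy5 alone (-0.30).

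The difference between the Cdk8 probes with shCdk8-1 on day 8 lost its call in the log ratios of Feature Extraction (-0.43), the authors' value table (-0.43), median centring (-0.42), only the groups compared (-0.41, adjusted p = 0.21), the fixed slide block (-0.089), without both arrays with pulled log ratios (-0.29), normexp with no offset (-0.40) and scale normalization (-0.60), and ranged from -0.58 to -0.29 with 1 array left out. On day 13 it did so in Feature Extraction's log ratios (-0.50), the authors' table (-0.50), the fixed block (-0.23), with no offset (-0.39) and with scale normalization (-0.49), and ranged from -0.61 to -0.46. With shCdk8-2 on day 8 it was -0.28 in Cy5 alone. The Cdk8 and Cdk19 contrast of day 8 was -0.93 in Cy5 alone (exact permutation p = 0.024), against -0.38 in the ratio (exact permutation p = 0.13). Cdk19 was 0.31 with shCdk8-1 on day 8 and 0.26 over both hairpins in Cy5 alone, against the sign of the ratio. The reference signal of the Cdk19 probe in Cy3 averaged 9.48 on the shNTC day 8 arrays, 9.95 with shCdk8-1 and 9.86 with shCdk8-2. What part that shift between arrays had in the Cy5 values was not tested. Cdk8 with shCdk8-1, day 13 minus day 8, was 0.12 with scale normalization. The 2 Med12 probes differed with shMed12-1 by 0.39 in the log ratios of Feature Extraction and by 0.39 in the table of the authors, over both Med12 hairpins by 0.30 and 0.30, and between the knockdowns by -0.33 and -0.33.

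For shCdk8-1 and shCdk8-2 on day 8, shCdk8-1 and shCdk8-2 on day 13, shMed12-1 and shMed12-2, in that order, the number of probes called was 906, 380, 395, 248, 1589 and 1324 with median centring, 2223, 1168, 936, 748, 2938 and 1740 with scale normalization and, up to shMed12-1, 952, 1631, 948, 1471 and 1775 with the fixed slide block. From shCdk8-2 on day 8 on it was 5902, 5137 and 5034 with no background correction, 5826, 5672 and 5370 in the log ratios of Feature Extraction and 5867, 5711 and 5366 in the table of the authors. For shMed12-2 it was 7172 in Feature Extraction's log ratios and 7547 with only the groups compared, for shCdk8-1 on day 8 it was 1583 with only the groups compared, and for shCdk8-2 on day 13 it was 4656 without both arrays with pulled log ratios. Leaving out 1 array gave 2970 to 5182 with shCdk8-1 on day 8 (lowest without shNTC replicate 2), 2119 to 3912 on day 13 and 1865 to 3740 with shCdk8-2 on day 13 (both lowest without shNTC replicate 1). The module probes called were, in the order above, 1, 0, 1 and 1 with median centring for the Cdk8 hairpins, and 2, 2, 1, 1, 1 and 1 with 1 probe per gene, which leaves 5. They were 2, 1 and 1 with scale normalization for shCdk8-1 day 8, shCdk8-2 day 8 and shCdk8-2 day 13, and 1 for shMed12-2. For shCdk8-1 on day 8 they were 2 with no filter, 2 with only the groups compared and 1 with the fixed block, and for shCdk8-2 on day 8 they were 2 in Cy5 alone and 2 with the fixed block. With 1 array left out they were 2 to 5 and 2 to 4 on day 8, and 1 to 2 with shCdk8-2 on day 13. The causes were not tested, apart from fewer arrays or probes where the setting itself leaves them out.

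Every group held each replicate number once, so a block for that number cannot move a change between groups, only its SE. The changes with their own hairpins thus stayed at -0.71, -0.31, -0.95 and -0.64 for Cdk8 and at -1.0 and -0.88 for Med12. The block changed no call of a module probe. Aquantile normalization between arrays leaves each log ratio as it was. The slide as a random block had an estimated correlation of -0.03. The fit on the authors' table held 27467 probes without blanks. Probes of low signal over background, the dimmer Cdk8 probe and Med13l, limit what could be detected.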
